A study of Mus musculus with 13 samples.

Results

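The 10 genes described here, of the peritubular wall and testicular stroma, were chosen by name and followed through the deposited spermatogonial profiles. They fall into 7 contractile genes (Acta2, Myh11, Tagln, Cnn1, Mylk, Tpm2 and Des) and 3 stromal genes (Dcn, Sparc and Vcam1), and all 10 were among the 20662 gene symbols of the tables. The members were chosen with their values in these libraries known, so every value of theirs is a description and carries no test.

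Total RNA of testicular germ cells from wild-type C57BL/6 mice aged 8 weeks was depleted of ribosomal RNA and sequenced as directional libraries. Of the 13 samples, 2 are used here, labelled as spermatogonia of the testis and titled KIT_AGSC and THY1_AGSC. They are named for KIT, the stem cell factor receptor of differentiating spermatogonia, and THY1, a surface protein by which undifferentiated spermatogonia are often sorted. Each group is 1 library, and the number of animals and the purity of each were not given in the sources used here. The remaining 11 samples were not analysed here. As no group has a replicate, every difference compares 2 libraries and has no p-value.

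The antigen transcripts ran against the sample titles. Kit was listed at 0 in the library titled KIT_AGSC and stood at 36.7 FPKM (fragments normalised to transcript length and library size) in the other, and Thy1 stood at 78.8 and 0.723 FPKM. The value column of the sample titled KIT_AGSC is also headed Thy1, and that of THY1_AGSC is headed Kit. Titles are followed below, as the KIT-labelled and the THY1-labelled library. Where values are paired by "and" or "against" without a library, the KIT-labelled one comes first. Each direction given would be the opposite one if the tables had been exchanged. Depth is not given. A low-end measure of it, percentile 5 of FPKM multiplied by length over genes above 0, was 6.41 times larger in the KIT-labelled library, so a single fragment weighs more there and low values are coarser. Genes listed at 0 made up 33.2% of symbols in the KIT-labelled library and 24.2% in the THY1-labelled library, and 18.3% were at 0 in both.

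Peritubular myoid cells are the flattened contractile cells that wrap the seminiferous tubule and move sperm and fluid along it. They carry a smooth muscle apparatus in which myosin pulls on actin after the myosin light chain is phosphorylated, and many of its genes are driven by serum response factor (SRF) with myocardin-family coactivators through a promoter motif called the CArG box. Fibroblast-like stromal cells of the interstitium and tubule wall lay down the collagens and matrix proteins around it.

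Promoter sequences of the members were searched for that motif. Of the 10 members, 6 had a promoter in the RefSeq table (build GRCm38.p6), and the 250 bases before the start were read for the CArG box, whose pattern is the same on both strands. The Acta2 window held no exact CArG box but 2 matches with 1 letter of the A/T run replaced, first bases 84 and 34 bases before the start. None of the other 5 windows (Cnn1, Mylk, Tpm2, Des and Sparc) held a match of either kind. An exact box was present for 1.62% of all 27025 genes in the table and an exact or 1-letter match for 9.78%. The 3 windows are printed because they set the contractile gene with matches beside the contractile gene with the largest difference and a stromal gene. Capitals mark the matches, and the windows lie at chr19:34255374-34255623 on the minus strand (Acta2), chr9:22099003-22099252 on the plus strand (Cnn1) and chr11:55420081-55420330 on the minus strand (Sparc).
Acta2: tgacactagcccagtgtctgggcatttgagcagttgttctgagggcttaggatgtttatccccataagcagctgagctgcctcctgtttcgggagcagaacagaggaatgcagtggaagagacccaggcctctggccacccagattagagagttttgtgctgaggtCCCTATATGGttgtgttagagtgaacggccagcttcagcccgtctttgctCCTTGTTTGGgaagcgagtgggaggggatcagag
Cnn1: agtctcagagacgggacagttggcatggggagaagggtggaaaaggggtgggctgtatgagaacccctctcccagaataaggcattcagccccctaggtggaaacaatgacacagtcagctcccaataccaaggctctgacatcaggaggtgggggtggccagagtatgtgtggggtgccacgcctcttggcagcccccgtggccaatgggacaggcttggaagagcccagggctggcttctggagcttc
Sparc: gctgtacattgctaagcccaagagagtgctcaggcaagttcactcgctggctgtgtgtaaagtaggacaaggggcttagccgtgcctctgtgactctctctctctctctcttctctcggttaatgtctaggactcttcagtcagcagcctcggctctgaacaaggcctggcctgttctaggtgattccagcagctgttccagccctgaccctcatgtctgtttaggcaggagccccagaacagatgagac

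Contractile genes were mostly higher in the KIT-labelled library, and the 3 stromal genes were far higher in the THY1-labelled library. Of the 7 contractile members 5 reached 1 FPKM in at least 1 library, and of these Acta2, Tagln, Cnn1 and Mylk stood at least 2-fold higher in the KIT-labelled library on the log2(FPKM + 1) scale, where 39.5% of all 15573 genes past that minimum were. Tpm2 was at least 2-fold higher in the THY1-labelled library, as were Dcn, Sparc and Vcam1, where 41.1% of all genes were. At least 2-fold differences were the rule, at 80.6% of all genes in either direction. The median difference, as labelled KIT minus labelled THY1, was 1.70 for the 5 contractile genes and -6.54 for the 3 stromal genes, a gap of 8.24, and it was -0.0026 over all genes past the minimum. These shares and medians follow from how the members were picked and are read as description. In RNA from bulk samples such as these, fewer cells of a type and less RNA per cell cannot be told apart.

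**Figure D1:**
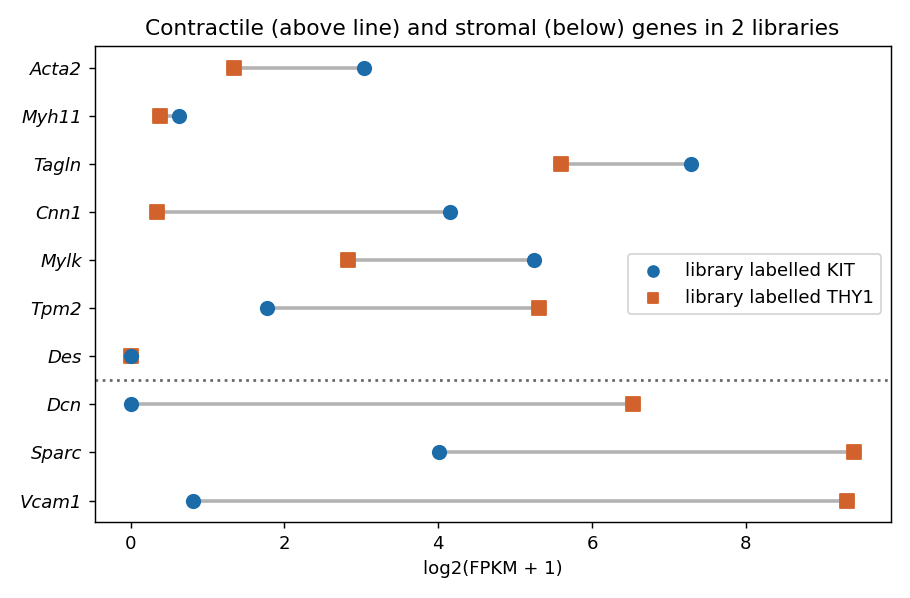
Level of each member as log2(FPKM + 1) on the horizontal axis, with circles for the KIT-labelled library and squares for the THY1-labelled library (1 library each, so no error bars), joined by a grey line. Acta2, Tagln, Cnn1 and Mylk lie further right in the KIT-labelled library, Tpm2 and the 3 stromal genes in the THY1-labelled library, and Des is at 0 in both.

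Among the filament proteins, Tagln, which encodes the actin-binding transgelin and is an early smooth muscle marker, was the most abundant contractile member in both libraries. It stood at 155 FPKM in the KIT-labelled library and at 47.2 FPKM in the THY1-labelled library, a ratio of 3.29. These levels exceeded 96.6% and 84.4% of the genes above 0 in the respective library, so Tagln was a high gene in both. It made up 70.8% of the summed contractile FPKM in the KIT-labelled library and 50.1% in the other. Its annotated locus overlaps the protease gene Pcsk7 (15.4 and 22.2 FPKM, labelled KIT first; chosen after its values were seen), and whether the authors quantified by strand was not given in the sources used here.

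Acta2, the smooth muscle alpha-actin that marks myoid cells, was modest in both libraries. Its level was 7.18 FPKM in the KIT-labelled library and 1.53 FPKM in the THY1-labelled library, a log2 difference of 1.69. With the low-end measure as the worth of 1 fragment and the longest coding transcript as length, these values correspond to roughly 5.34 and 7.28 fragments, so the Acta2 difference rests on few fragments in either library. Of the distinct 50-base words in its annotated transcripts, 0.326% occur in transcripts of other genes, among them Actg1. Its level was the middle one of the 7 contractile genes in both libraries.

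Cnn1, encoding calponin, an actin-bound inhibitor of myosin ATPase, had the largest difference among the contractile members. It stood at 16.9 FPKM in the KIT-labelled library and at 0.272 FPKM in the THY1-labelled library, and its log2 difference of 3.81 was above that of 96.1% of all genes past the minimum. About 14.7 and 1.52 fragments correspond to these values, which makes the lower one uncertain. Tagln and Acta2 lay closer to the bulk, with differences above those of 71.5% of genes each.

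The motor and its regulator differed in how well they were seen. Mylk, the myosin light chain kinase that starts contraction, was at 37.1 FPKM in the KIT-labelled library and at 6.10 FPKM in the THY1-labelled library, a ratio of 6.08 and a log2 difference of 2.42. Both values correspond to about 106 and 112 fragments on the longest transcript, more than for Acta2 or Cnn1 in either library. Mylk also makes short transcripts, telokin among them, and the tables do not separate them. Myh11, the smooth muscle myosin heavy chain and a strict marker of mature smooth muscle, was at 0.545 and 0.307 FPKM, below the 1 FPKM minimum in both libraries. That corresponds to about 1.30 and 4.71 fragments over a long transcript. Des, the muscle intermediate filament desmin, was listed at 0 in both libraries, as 18.3% of all symbols were, so a listed 0 is not read as absence. Of the contractile markers, the heavy chain and desmin thus stayed under 1 FPKM in both libraries, while transgelin and the kinase exceeded it in both.

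Tpm2, beta-tropomyosin, which lies along the actin filament, went against the other contractile genes. It stood at 2.40 FPKM in the KIT-labelled library and at 38.9 FPKM in the THY1-labelled library, a log2 difference of -3.55 that was above that of 14.8% of genes. In estimated fragments these were about 1.91 and 198. The Tpm2 locus overlaps Car9 (7.28 and 1.74 FPKM, labelled KIT first; chosen after its values were seen), whose direction is the opposite one.

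The 3 stromal members were all higher in the THY1-labelled library by large factors. Sparc, a collagen-binding matrix protein also called osteonectin, stood at 15.1 FPKM in the KIT-labelled library and at 680 FPKM in the THY1-labelled library, a ratio of 44.9 in favour of the latter. Vcam1, an adhesion receptor for integrins on leukocytes, stood at 0.750 and 634 FPKM in the same order. Sparc and Vcam1 ranked 53 and 59 of all genes in the THY1-labelled library, so both were among its most abundant transcripts. Dcn, the collagen-organising proteoglycan decorin, was listed at 0 in the KIT-labelled library and stood at 91.9 FPKM in the THY1-labelled library. A single fragment of Dcn would have stood at about 1.56 FPKM in the library that lists it at 0. Log2 differences were -5.40 for Sparc, -8.50 for Vcam1 and -6.54 for Dcn, and 3.89%, 0.244% and 1.57% of genes past the minimum lay lower. The Vcam1 value in the KIT-labelled library corresponds to about 0.951 fragments and the Sparc value to about 12.7, against about 5154 and 3664 in the other library.

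**Figure D2:**
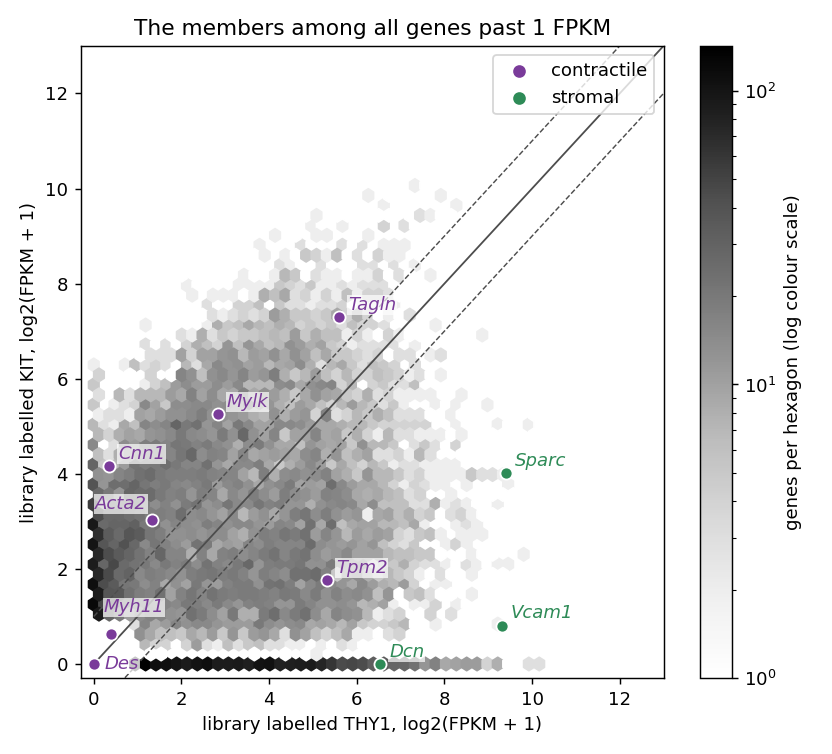
Genes that reached 1 FPKM in either library, by log2(FPKM + 1) in the THY1-labelled library (horizontal) and labelled KIT (vertical), with the number of genes per hexagon in grey and the members as coloured points (Myh11 and Des are drawn although below the minimum). The solid line marks equal levels, the dashed lines 2-fold, and 2 genes lie beyond the axes. Sparc and Vcam1 sit at the right edge of the cloud, while Tagln, Mylk and Acta2 sit within its upper part.

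Within each library the balance of both groups can be set side by side without any scaling between libraries. In the KIT-labelled library the contractile members summed to 219 FPKM and the stromal members to 15.9 FPKM, a ratio of 13.8. In the THY1-labelled library they summed to 94.2 and 1406 FPKM, a ratio of 0.067. Tagln carries much of the contractile sum, and without it the ratios were 4.03 and 0.0335. The summed contractile members were thus above the summed stromal members in the first library and below them in the second, where Sparc and Vcam1 made up 93.5% of the stromal sum. The wider lists described further on did not show the first of these. Their contractile and stromal sums were 191 and 200.4 FPKM in the KIT-labelled library (ratio 0.953) and 456 and 1122 FPKM in the THY1-labelled library (ratio 0.406).

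**Figure D3:**
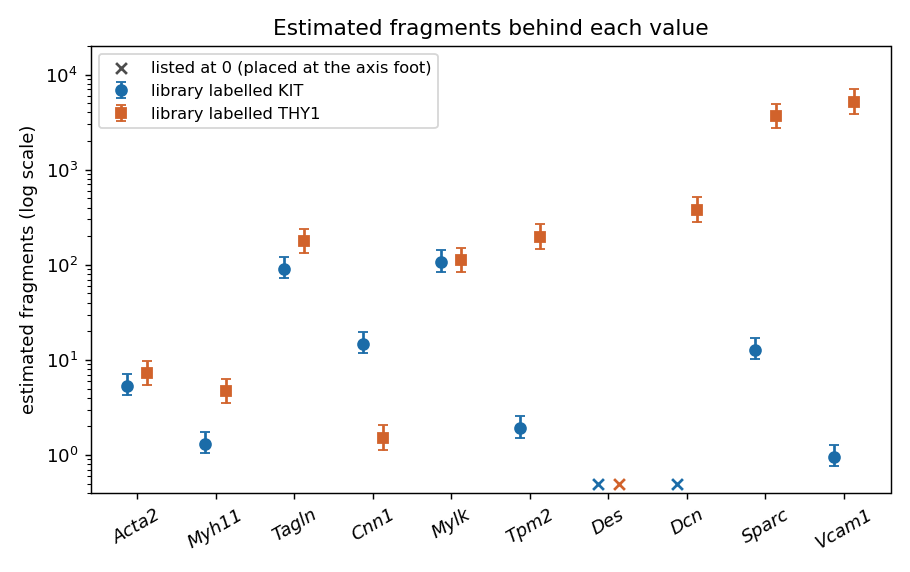
Estimated number of fragments behind each member's value (log axis), as FPKM multiplied by transcript length and divided by its percentile 5 over genes above 0, with bars spanning the estimates from percentiles 10 and 2 and crosses for values listed at 0. Tagln and Mylk rest on about 90.6 fragments or more in both libraries, whereas Acta2, Myh11, Cnn1, Tpm2 and Vcam1 rest on under 10 in at least 1 library.

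Relatives of the contractile members did not follow them as a group. Among the actins, Actg2, the other smooth muscle actin, was at 9.14 FPKM in the KIT-labelled library and at 116 FPKM in the THY1-labelled library, opposite to Acta2. The cytoplasmic actin Actb was at 145 and 44.8 FPKM, Actg1 was at a listed 0 and 0.635 FPKM, and the striated muscle actins Acta1 and Actc1 were listed at 0 in both. Actg1 shares 37.4% of its 50-base words with other genes and is uncertain. In the tropomyosin family, Tpm1 was listed at 0 in the KIT-labelled library and stood at 182 FPKM in the other, on the side of Tpm2. Tpm4 was the reverse at 60.0 and 9.27 FPKM, and Tpm3 was low at 1.10 and 0.577 FPKM. Muscle-type actin and tropomyosin genes thus lay on both sides, Acta2 on one and Actg2, Tpm1 and Tpm2 on the other.

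Non-muscle myosins split as well. Myh10 was at 67.4 FPKM in the KIT-labelled library and at 22.8 in the THY1-labelled library, Myh9 at 0.969 and 22.2, and Myh14 at a listed 0 and 1.17. Cnn2 lay on the side of Cnn1 (6.13 and 1.25 FPKM, labelled KIT first), whereas Cnn3 (listed 0 and 19.8 FPKM), Tagln2 (listed 0 and 16.0 FPKM) and Tagln3 (listed 0 and 4.17 FPKM) were higher in the THY1-labelled library. The kinase relatives Mylk2 (listed 0 and 0.143 FPKM), Mylk3 (listed 0 and 0.150 FPKM) and Mylk4 (0.584 FPKM and a listed 0) were all below the minimum. The whole list of 25 relatives also holds those of Des and of the stromal members. Of these 25, 19 passed the minimum, with 7 at least 2-fold higher in the KIT-labelled library and 11 in the other, against 39.5% and 41.1% of all genes, and a median difference of -2.37.

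Intermediate filament genes, the family of Des, lay on both sides. The mesenchymal filament Vim was listed at 0 in the KIT-labelled library and stood at 375 FPKM in the THY1-labelled library. Partners of desmin went the other way, Synm (synemin) at 66.9 against 3.89 FPKM and Sync (syncoilin) at 68.0 against 12.2, both higher in the KIT-labelled library. Gfap stood at 46.0 against 3.27 FPKM and Prph at 1.89 FPKM against a listed 0, while the nuclear lamin Lmna was at 5.31 against 65.7. Of 7 usable genes of the 9 listed, 5 were at least 2-fold higher in the KIT-labelled library and 2 in the other, against 39.5% and 41.1% of all genes.

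A wider list of smooth muscle genes, which the choice of members did not use, lay on both sides, with more genes higher in the KIT-labelled library. The list was drawn up with earlier results of these data known, so it is read as description and not as an independent check. Of 25 genes 24 were in the tables and 23 past the minimum, of which 12 (52.2%) stood at least 2-fold higher in the KIT-labelled library and 7 (30.4%) in the other, against 39.5% and 41.1% of all genes. The median difference was 1.28. After scaling to a median ratio of 1 the split was 9 against 8 of 20 genes and the median 0.62. Over all genes that setting gave shares of 33.3% and 46.2% and a median of -0.57. Before that scaling, the 12 genes higher in the KIT-labelled library correspond there to about 1.23 (Pdlim3) to 24.9 (Hspb6) fragments. The 7 higher in the THY1-labelled library correspond there to about 21.0 (Csrp1) to 1233 (Tpm1). Pdlim3, Hspb6 and Csrp1 were chosen after their values were seen. The light chain gene Myl6 stood at 17.6 FPKM, about 10.7 fragments, in the KIT-labelled library and was listed at 0 in the other. Tpm1, Actg2, the phosphatase inhibitor Ppp1r14a (29.3 FPKM) and the crosslinker Actn1 (20.8 FPKM) were higher in the THY1-labelled library, and Ppp1r14a and Actn1 were listed at 0 in the KIT-labelled library. Where the larger value had to reach 30 FPKM, 4 genes were left, 1 higher in the KIT-labelled library and 3 in the other.

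The CArG box was also searched in that list. Of its 23 genes with a promoter in the table, 3 held an exact box and 6 (26.1%) an exact or 1-letter match, against 1.62% and 9.78% of all genes. The exact matches are printed as the motif copies found, with their first base counted back from the start, and are descriptions rather than shown binding sites. In level these genes were unlike each other, with Myl6 as given above, Vcl (vinculin) at 29.6 and 16.0 FPKM and the light chain gene Myl9 at 2.70 and 2.33 FPKM, labelled KIT first. Vcl and Myl9 were chosen after their values were seen. The bases before the start were 161 for Myl9, 50 for Myl6 and 227 for Vcl.
Myl9: CCTAATAAGG
Myl6: CCTTATATGG
Vcl: CCTTATAAGG

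Regulators of the contractile program were detectable at low to moderate levels. Of 10 genes for SRF, its coactivators and related factors, 9 passed the minimum, with 5 at least 2-fold higher in the KIT-labelled library and 1 in the other, against 39.5% and 41.1% of all genes (median 1.10). The coactivators Mkl1 and Mkl2 stood at 34.1 and 26.5 FPKM in the KIT-labelled library against 10.2 and 4.35. Gata6, a smooth muscle-associated GATA factor, was at 14.0 against 0.717 FPKM and the mesenchymal factor Foxf1a at 20.4 against 1.78, while the SRF partner Elk1 was listed at 0 against 2.59. Chosen after their values were seen, Srf was at 12.6 against 7.76 FPKM and the coactivator Myocd was below the minimum at 0.929 against 0.458. Requiring at least 5 estimated fragments, an alternative chosen after seeing the data, left 5 genes with a median of -0.14. The median over all genes was then -0.75. Mkl1, Mkl2 and Foxf1a dropped out there because they had no matched length, and Tbx18 (1.15 FPKM against a listed 0, chosen after its values were seen) for too few fragments.

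Upstream signalling genes lay on both sides. Of 23 genes for signalling in contraction 20 passed the minimum, of which 5 stood at least 2-fold higher in the KIT-labelled library and 11 in the THY1-labelled library, against 39.5% and 41.1% of all genes, with a median of -1.19. Scaled to the same upper quartile, the split was 8 against 9 of 21 genes and the median -0.61. Over all genes that setting gave shares of 45.5% and 36.5% and a median of 0.56. The calcium release channel Itpr1 was listed at 0 against 29.3 FPKM. The endothelin receptor Ednra was at 91.3 against 5.50 FPKM and the thromboxane receptor Tbxa2r at 69.3 FPKM against a listed 0. Channel genes of smooth muscle were mixed, 3 against 4 of 9 usable genes at least 2-fold higher, where 39.5% and 41.1% of all genes were. Among them the potassium channel subunit Kcnmb1 was at 8.18 against 0.241 FPKM, its partner Kcnma1 at a listed 0 against 8.85, and the calcium channels Cacna1c at 4.49 against 1.03 and Cacna1h at 5.33 against 12.4.

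Other matrix genes lay mostly on the side of the stromal members. This list too was drawn up with earlier results of these data known and is read as description. Of 33 genes 32 were in the tables and 27 past the minimum, of which 16 (59.3%) stood at least 2-fold higher in the THY1-labelled library and 6 (22.2%) in the KIT-labelled library, against 41.1% and 39.5% of all genes, with a median of -1.72. The secreted binding protein Igfbp7 was listed at 0 in the KIT-labelled library and stood at 445 FPKM in the THY1-labelled library. Pcolce, which promotes procollagen processing, was at 16.4 against 326 FPKM, Col3a1, a fibrillar collagen, at 0.546 against 37.7, and Col6a1, a beaded-filament collagen, at 0.841 against 33.8. The list was not uniform, as Thbs1 (75.2 against 29.1 FPKM) and Igfbp5 (6.07 against 0.168 FPKM), chosen after their values were seen, were higher in the KIT-labelled library. Without a minimum level the median was -0.98 over 32 genes.

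**Figure D4:**
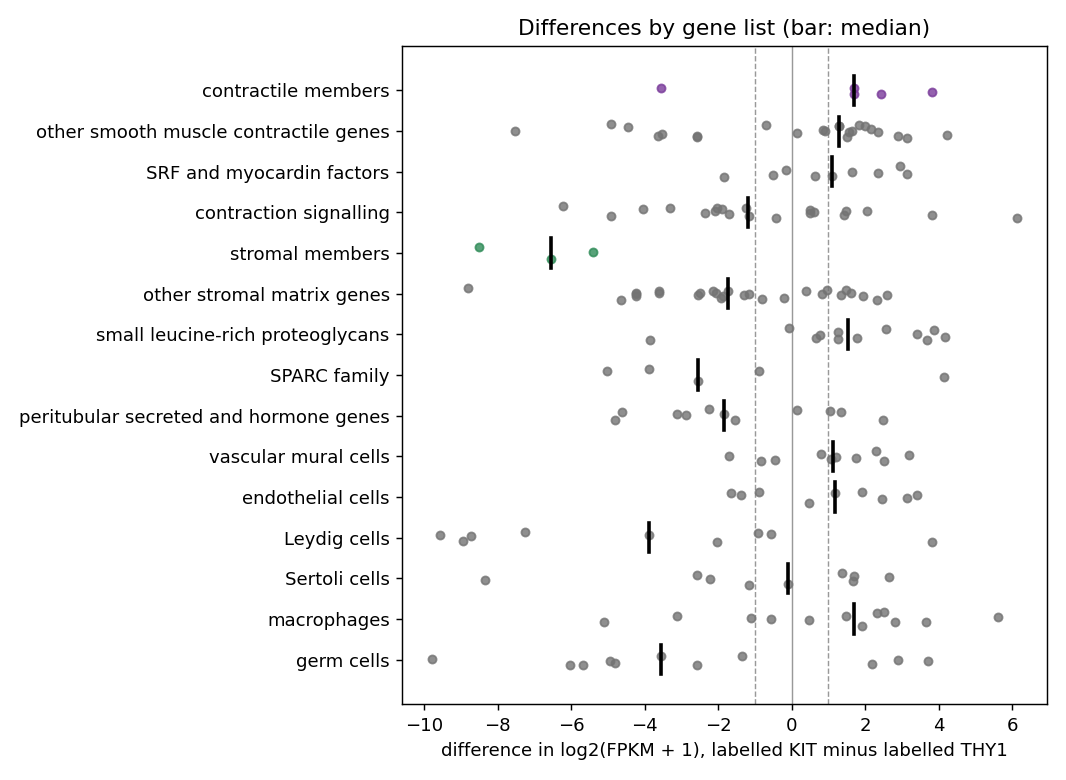
Difference in log2(FPKM + 1), labelled KIT minus labelled THY1, of each gene past 1 FPKM (points) in 15 gene lists, with black bars at the median and dashed lines at 2-fold. The 3 stromal members lie at the left, and the contractile list spreads from Tpm2 on the left to Cnn1 on the right.

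Relatives of Dcn lay mostly on the side opposite to Dcn. Dcn belongs to the small leucine-rich proteoglycans, and of 12 usable relatives 8 (66.7%) were at least 2-fold higher in the KIT-labelled library and 1, Bgn (biglycan, listed at 0 against 13.4 FPKM), in the THY1-labelled library, where Dcn is high. Over all genes these shares were 39.5% and 41.1%. The median over these relatives was 1.52. On chromosome 10 the next genes after Dcn are Lum, Kera and Epyc. Lum (lumican) was at 1.41 FPKM in the KIT-labelled library, about 1.27 fragments, and at a listed 0 in the other, Kera (keratocan) at 23.4 against 0.896, and Epyc (epiphycan, chosen after its values were seen) at 9.89 against 10.48. On chromosome 13 a run of 4 relatives was at high levels in the KIT-labelled library, with Aspn (asporin) at 389 against 25.9 FPKM, Omd (osteomodulin) at 453 against 24.4 and Ogn (osteoglycin) at 429 against 71.9. The fourth, Ecm2, chosen after its values were seen, was at 223 against 19.97 FPKM. These 4 neighbouring genes are among the 8 counted above.

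**Figure D5:**
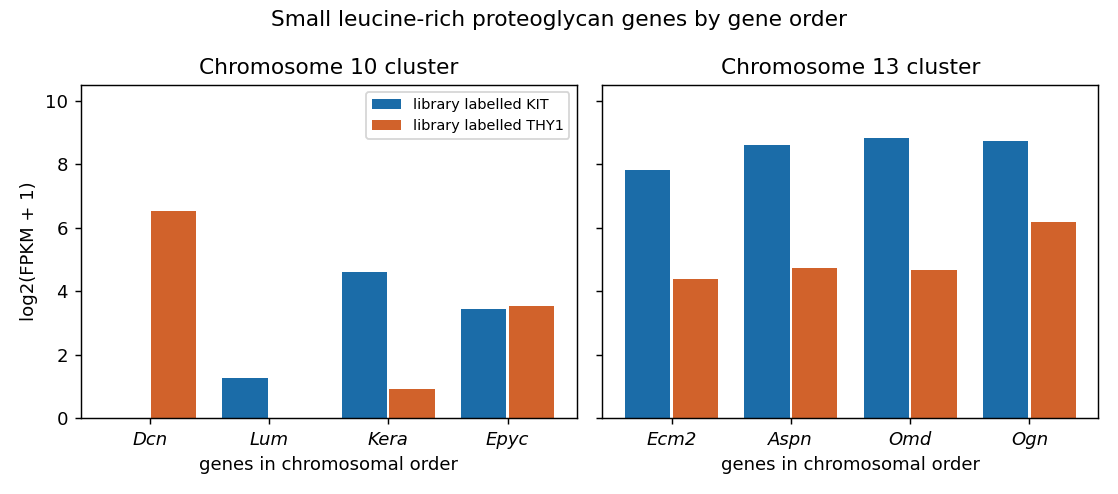
Levels as log2(FPKM + 1) of 8 small leucine-rich proteoglycan genes in chromosomal order, with blue bars for the KIT-labelled library and orange bars for the THY1-labelled library (1 library each; no bar means listed at 0). Of the 4 genes of the chromosome 10 cluster Dcn has the tallest bar, in the THY1-labelled library and with none in the other, and the 4 genes of the chromosome 13 cluster are higher in the KIT-labelled library.

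Relatives of Sparc and partners of Vcam1 were divided. Sparcl1 (3.60 against 66.5 FPKM), Smoc1 (listed 0 against 31.6) and Spock2 (0.698 against 8.92) lay on the side of Sparc, and the follistatin-like Fstl1 lay opposite at 67.1 FPKM in the KIT-labelled library against 2.83. For VCAM1, the integrin partner chain Itga4 was at 34.0 FPKM in the KIT-labelled library against 1.11, Itgb7 at 9.99 against 0.534, and the shared beta chain Itgb1 at 23.9 against 111. Adhesion relatives were Icam1, at 5.87 against 99.3 FPKM on the side of Vcam1, and Madcam1, at 21.2 against 2.63. The ligand-side and partner-side genes of leukocyte adhesion therefore did not share a direction here.

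Growth factor and progenitor genes of the stroma gave no common direction. Of 14 usable genes 7 stood at least 2-fold higher in the KIT-labelled library and 6 in the other, near the 39.5% and 41.1% of all genes. Scaled to a median ratio of 1, the split was 4 against 6 of 13, against 33.3% and 46.2% of all genes. The fibroblast receptor Pdgfra and its ligand Pdgfa were listed at 0 in the KIT-labelled library and at 16.0 and 16.1 FPKM in the THY1-labelled library. Cd34, a surface marker of stromal and endothelial progenitors, was at 115 FPKM in the KIT-labelled library against 14.5, Ly6a at 25.8 against 6.35 and the hedgehog target Gli1 at 8.26 against 0.438. Secreted factors tied to peritubular cells were at least 2-fold higher in the THY1-labelled library for 7 of 11 usable genes and in the other for 3. Over all genes these shares were 41.1% and 39.5%, and the median over the secreted factors was -1.83. Among these, Cxcl12 and Adm were listed at 0 against 23.4 and 26.8 FPKM, Csf1 was at 10.8 against 85.8 and Plau at 10.8 against 41.1.

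Markers of other testis cells differed between the libraries too, and their part in the members' differences was not tested. The 9 measured Leydig genes, of testosterone-producing interstitial cells, summed to 246 FPKM in the KIT-labelled library and 6505 FPKM in the THY1-labelled library. Of these 9, 6 stood at least 2-fold higher in the latter and 1 in the former, against 41.1% and 39.5% of all genes. Cyp11a1 was at 1.97 against 2272 FPKM, Cyp17a1 at 18.1 against 2945 and Hsd3b1 at 19.5 against 82.3, while Hsd3b6 and Hsd17b3 were listed at 0 in the KIT-labelled library. The Leydig sum was thus higher in the same library as Sparc, Vcam1 and Dcn. Vascular mural genes, of the smooth muscle and pericytes around vessels, summed over 14 genes to 66.6 and 31.9 FPKM. Of 10 usable mural genes 6 stood at least 2-fold higher in the KIT-labelled library and 1 in the other, against 39.5% and 41.1% of all genes, with a median of 1.13. Scaled to a median ratio of 1, the mural split was 4 against 2 of 10 and the median 0.71. At a minimum of 5 FPKM the mural split was 3 against 0 of 5. Among the 6, Cox4i2, Higd1b and Kcnj8 correspond to only about 1.05, 2.19 and 4.22 fragments in the KIT-labelled library. Rgs5, Rgs4, Mustn1 and Olfr558 were listed at 0 in both libraries, Notch3 was at 8.26 against 3.03 FPKM and Cspg4 at 9.77 against 0.884. The 12 endothelial genes summed to 93.7 and 30.1 FPKM, 5 against 2 of 9 usable, with Pecam1 at a listed 0 against 0.219 FPKM, Cdh5 at 0.649 against 3.30 and Kdr at 0.481 against 0.387. Higher in the KIT-labelled library were Tek at 46.6 against 3.47 FPKM, Cldn5 at 14.4 against 0.762, Eng at 14.3 against 1.78 and Esam at 4.37 against 0.429.

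Sertoli, macrophage and germ cell lists completed the marker check. The 11 measured Sertoli genes summed to 31.1 and 911 FPKM, of which Clu made up 1.62 and 848. Of 9 usable Sertoli genes 4 were at least 2-fold higher in each library, against 39.5% and 41.1% of all genes. Sox9, Wt1 and Amh stood at 2.87, 5.30 and 6.71 against 0.227, 1.45 and 0.227 FPKM. Their KIT-labelled values correspond to only about 4.34, 5.99 and 4.10 fragments. Gata4 (2.24 against 18.4 FPKM) and Cst12 (7.44 against 38.3 FPKM) went the other way. The 12 macrophage genes summed to 301 and 970 FPKM, of which Aif1 alone made up 24.5 and 880. Of these 12, 7 were at least 2-fold higher in the KIT-labelled library and 3 in the other, against 39.5% and 41.1% of all genes. C1qb was at 119 against 16.0 FPKM and C1qc at 48.3 FPKM against a listed 0, while Mrc1 was at 1.82 against 23.7. Csf1r was at 17.2 against 25.8, Cd68 at 12.5 against 8.79 and Emr1 at 1.05 against 3.46 FPKM. The 12 germ cell genes, the labelled cell type, summed to 4368 and 2047 FPKM. Of 11 usable germ cell genes, 3 passed the 2-fold threshold on the KIT-labelled side and 8 on the other, beside 39.5% and 41.1% of all genes. Their general markers Ddx4 (1.77 against 140 FPKM) and Dazl (1.70 against 75.2 FPKM) were near the low end in the KIT-labelled library, whose germ cell sum came mostly from the sperm packaging genes Prm1 (2406 against 184 FPKM) and Prm2 (1110 against 148 FPKM).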

How the data were processed

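Ribosomal-RNA-depleted, directional libraries were sequenced, per the labels' protocols. The deposited tables give 1 decimal value per gene symbol. No unit stands in the file headers, and values were taken as FPKM because the authors used Cufflinks 2.1.1, per the submitters' processing notes, which also name TopHat 1.4.1, CASAVA and build mm9 without roles. Annotation and filters were not given in the sources used here. Tables were taken as belonging to the samples they are deposited under.

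Differences were computed as log2(FPKM + 1), labelled KIT minus labelled THY1, with a pseudocount of 1, a minimum of 1 FPKM in the larger value and a fixed 2-fold threshold in place of a test. Depth was estimated from GENCODE M21 lengths, for single-transcript genes over 1000 bases (worth of 1 fragment 2735 and 427). Neighbouring genes and promoters came from RefSeq (GRCm38.p6), which is not the build of the files. The counting code was checked on simulated data without noise, with large changes set in genes of high level. That checks the code only and not how reliable the counts are at low levels. Python 3.11.15, numpy 2.4.6 and pandas 2.3.3 were used.

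The members and lists were chosen with earlier results of these data known. Named genes were the members, Kit and Thy1, the 25 relatives, and per list the 4 largest differences past the minimum, the 2 highest means and, for other cell types, the first 3 genes. A gene named outside this rule is marked so in the text. Some genes that this rule names are not reported here.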

Additional observations from a re-analysis of the deposited data

How the results depend on the processing

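Each member past the minimum kept its direction under a pseudocount of 0.1, 3 other scalings, no minimum, a minimum of 5 or 30 FPKM, genes above 0 in both libraries (which leaves out Dcn) and, added after seeing the data, at least 5 estimated fragments. The contractile median ranged from 1.21 to 2.28 and the stromal median from -9.54 to -6.54. At a minimum of 30 FPKM 2 of 3 contractile members were higher in the KIT-labelled library, since Acta2 and Cnn1 fall below it. Scaling moved the median of all genes to -0.57 (median ratio of 1), 0.56 (upper quartile) and 0.22 (sum without Rpph1). The wider contractile median was 0.62 with the first, and at 30 FPKM it reversed to -3.59, with 1 gene higher in the KIT-labelled library and 3 in the other. With genes above 0 in both libraries 3 of 15 were higher in the THY1-labelled library, because genes listed at 0 are left out. Over all genes that share was then 33.9%. The wider matrix median was -0.98 with no minimum. Its genes higher in the THY1-labelled library numbered 10 of 16 at 5 FPKM and 6 of 8 at 30 FPKM, and those higher in the KIT-labelled library numbered 1 at 30 FPKM and 3 of 22 with at least 5 fragments. Direction also turned for channel genes (0.38, 0.057 and 0.63) and Sertoli genes (0.32, 0.058 and 0.63) with the upper quartile, the sum without Rpph1 and genes above 0 in both. It turned for striated muscle genes (2.98 at 5 FPKM and above 0 in both, 4.20 at 30 FPKM), relatives of the members (0.97 above 0 in both), SRF factors (-0.14 with at least 5 fragments) and Cd68 (-0.0539 with a median ratio of 1). The cause was not tested beyond the genes each setting leaves out. No paired analysis was possible because each group is 1 library. Depth limits Acta2, Myh11, Cnn1, Tpm2 and Vcam1, which rest on under 10 estimated fragments in at least 1 library, and Dcn and Des, which are listed at 0.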

Other observations

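Of 23 striated muscle genes, 9 were listed at 0 in both libraries and 9 were past 1 FPKM. Of the latter, 4 were at least 2-fold higher in the KIT-labelled library and 5 in the other, against 39.5% and 41.1% of all genes. The giant sarcomere protein gene Ttn was at 190 FPKM in the KIT-labelled library against 9.41, Ckm, the muscle creatine kinase, at 13.7 against 0.863 and the ventricular light chain gene Myl2 at 17.9 FPKM against a listed 0. The cardiac troponin gene Tnni3 was at a listed 0 against 9.37 FPKM. The level of Ttn corresponds to about 7421 and 2355 fragments, and its neighbours on chromosome 2, Plekha3 (5.37 and 19.2 FPKM) and Ccdc141 (1.09 and 4.00 FPKM), chosen after their values were seen and given labelled KIT first, were not at the level of Ttn.

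The run of Ecm2, Aspn, Omd and Ogn on chromosome 13 overlaps the annotated span of Cenpp, a kinetochore gene that was at 26.5 FPKM in the KIT-labelled library and 45.2 in the THY1-labelled library. The next gene after the run, Nol8, stood at 3.71 and 73.9 FPKM, and Ippk before it at 92.8 and 39.8. All neighbours named here were chosen after their values were seen. Beside members, Fas and Stambpl1 (next to Acta2) stood at 1.56 and 1.41 FPKM in the KIT-labelled library against 16.0 and 45.8, and Atox1 (next to Sparc) at a listed 0 against 122.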
